A study of Mus musculus with 39 samples.

Results

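The DP bivalent enhancers of naive extra-embryonic endoderm (nEnd) are stretches of chromatin away from promoters that carried H3K4me1 together with H3K27me3 and lacked H3K27ac in the cells positive for both OCT4-mCherry and PDGFRA (DP). There were 284 of them among 5591 DP H3K4me1 regions outside promoters. They were selected on listed peaks of the DP libraries themselves. Peaks of the 3 libraries of a mark were merged, and a consensus region had a peak in 2 or more of them. A bivalent region was a DP H3K4me1 consensus region at least 1 bp of which lay under a DP H3K27me3 consensus region and none under a DP H3K27ac consensus region. Promoters, from 1 kb upstream to 100 bp downstream of any GENCODE transcription start site (TSS), were left out. By the same overlaps 3400 regions had neither H3K27ac nor H3K27me3 (primed), 1850 had H3K27ac alone (active) and 57 had both.

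The series holds 36 CUT&Tag libraries, an assay in which an antibody brings a transposase to the DNA around a histone mark. They cover 4 marks (H3K4me1, H3K27ac, H3K27me3 and H3K9me3), 3 populations and 3 replicates of each. All cells came from 1 OCT4-mCherry reporter line of mouse embryonic stem cells, turned into endoderm in medium with Activin A, CHIR99021 and LIF and then expanded on mouse embryonic fibroblast feeder cells, with no further treatment. FACS for OCT4-mCherry and for PDGFRA stained with APC separated cells with OCT4-mCherry alone (Oct4+), DP cells and cells with PDGFRA alone (Pdgfra+). The study describes its replicates as biological, and the labels do not say whether they were separate cultures or sorts. Sequencing depth was unknown. The lists held 1074 to 16057 peaks for H3K4me1, 3079 to 65131 for H3K27ac, 1143 to 8672 for H3K27me3 and 5322 to 29970 for H3K9me3. A region without a listed peak may therefore still carry the mark. At the promoters of 5 pluripotency genes (Pou5f1, Nanog, Sox2, Esrrb and Zfp42), H3K27ac was listed in 2 or more libraries for 5 genes in Oct4+ and 0 in DP and Pdgfra+. At those of 5 endoderm genes (Pdgfra, Gata6, Gata4, Sox17 and Sox7) it was listed for 1 gene in Oct4+, 5 in DP and 4 in Pdgfra+. Of 6 fibroblast genes (Col1a1, Col1a2, Col3a1, Thy1, Prrx1 and Twist2) 0 had an H3K27ac peak at the promoter in any library.

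H3K4me1 is laid down by MLL3 and MLL4 at distal regulatory elements, H3K27ac by p300 and CBP at those in use, and H3K27me3 by Polycomb repressive complex 2 (PRC2). An element with H3K4me1 and H3K27me3 but no H3K27ac is called a poised or bivalent enhancer and is known from pluripotent cells, often near regulators of later lineages. PRC2 is found above all at CpG-rich DNA that is not transcribed. H3K9me3 marks heterochromatin, which is separate from Polycomb chromatin. The primitive endoderm is the extra-embryonic lineage that arises beside the epiblast in the blastocyst and forms the yolk sac endoderm.

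The DNA at the H3K4me1 maximum of 7 bivalent regions is printed. These bases need not lie under H3K27me3, and the Med13l run lay outside its DP H3K27me3 region, which ended at chr5:118446583. Each run is 300 bases of GRCm38, plus strand, centred on the H3K4me1 maximum, with CpG dinucleotides in capitals. Nkd1 (chr8:88454042-88454341) and Atoh8 (chr6:72223945-72224244) lie in the 2 members with H3K27me3 in all 9 libraries. Esrrb (chr12:86402809-86403108), Eomes (chr9:118481948-118482247) and Wnt7b (chr15:85559453-85559752) stand for genes of the pluripotency, endoderm and trophectoderm lists. Med13l (chr5:118448973-118449272) had H3K27ac in Oct4+ and Egfl7 (chr2:26549655-26549954) in Pdgfra+. The Nkd1 run was added after its values were seen, to show a CpG-rich member.
Nkd1: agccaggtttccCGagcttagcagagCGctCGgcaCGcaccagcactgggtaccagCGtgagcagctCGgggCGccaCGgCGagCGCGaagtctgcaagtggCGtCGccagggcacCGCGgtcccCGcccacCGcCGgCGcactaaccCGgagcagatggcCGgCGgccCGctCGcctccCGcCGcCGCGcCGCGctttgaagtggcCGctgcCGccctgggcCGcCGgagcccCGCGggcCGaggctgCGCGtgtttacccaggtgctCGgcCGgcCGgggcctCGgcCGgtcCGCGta
Esrrb: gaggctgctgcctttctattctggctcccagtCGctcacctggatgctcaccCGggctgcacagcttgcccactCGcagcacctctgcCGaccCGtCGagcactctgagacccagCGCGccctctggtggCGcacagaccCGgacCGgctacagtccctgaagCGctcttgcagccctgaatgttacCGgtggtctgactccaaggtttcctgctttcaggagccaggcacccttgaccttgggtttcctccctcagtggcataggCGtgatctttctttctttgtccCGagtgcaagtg
Eomes: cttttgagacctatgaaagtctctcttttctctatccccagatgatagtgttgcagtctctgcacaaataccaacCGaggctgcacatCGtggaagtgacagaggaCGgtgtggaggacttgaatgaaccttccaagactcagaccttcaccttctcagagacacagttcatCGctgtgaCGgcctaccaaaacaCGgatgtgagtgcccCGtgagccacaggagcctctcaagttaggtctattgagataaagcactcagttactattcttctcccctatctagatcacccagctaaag
Wnt7b: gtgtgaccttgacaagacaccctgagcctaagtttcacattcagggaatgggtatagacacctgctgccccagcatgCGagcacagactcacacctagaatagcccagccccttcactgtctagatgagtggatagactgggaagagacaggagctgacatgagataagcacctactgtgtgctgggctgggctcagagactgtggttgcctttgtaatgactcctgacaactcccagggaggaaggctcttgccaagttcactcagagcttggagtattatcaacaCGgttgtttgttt
Atoh8: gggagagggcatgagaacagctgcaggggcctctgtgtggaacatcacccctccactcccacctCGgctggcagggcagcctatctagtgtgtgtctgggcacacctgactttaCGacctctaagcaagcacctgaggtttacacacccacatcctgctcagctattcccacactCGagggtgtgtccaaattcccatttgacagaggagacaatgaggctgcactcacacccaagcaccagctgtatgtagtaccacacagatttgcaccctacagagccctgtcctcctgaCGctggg
Med13l: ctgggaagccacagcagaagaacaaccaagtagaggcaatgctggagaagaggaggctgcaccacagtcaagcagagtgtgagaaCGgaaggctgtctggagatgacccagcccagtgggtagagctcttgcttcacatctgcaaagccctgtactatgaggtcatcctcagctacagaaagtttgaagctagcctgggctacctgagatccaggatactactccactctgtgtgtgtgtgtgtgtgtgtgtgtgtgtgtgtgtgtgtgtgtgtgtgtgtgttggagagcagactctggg
Egfl7: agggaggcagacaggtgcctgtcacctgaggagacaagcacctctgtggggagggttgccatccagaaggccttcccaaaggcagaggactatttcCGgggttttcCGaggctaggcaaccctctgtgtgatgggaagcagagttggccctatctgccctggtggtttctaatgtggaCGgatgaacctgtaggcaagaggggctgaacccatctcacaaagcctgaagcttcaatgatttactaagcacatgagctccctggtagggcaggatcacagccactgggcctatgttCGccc
Counted over these 300 bases, CpG sites numbered 46 at Nkd1, 15 at Esrrb, 7 at Eomes, 4 at Atoh8, 4 at Egfl7, 2 at Wnt7b and 1 at Med13l. The run of Eomes held 1 GATA match and that of Wnt7b 1 GATA and 1 ESRRB match. That of Nkd1 held 1 FOXA and 2 TFAP2 matches, and the other 4 runs held 0 matches to the 10 motifs listed below.

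The values that chose the members are given as a description only. Of the 284 regions, 91 had H3K4me1 in 3 DP libraries and 193 in 2. DP replicate 1, whose H3K4me1 list was the shortest of the population, held a peak at 43.7% of them against 94.7% and 93.7% in replicates 2 and 3. Because consensus regions are merged, an H3K27me3 peak lay over the H3K4me1 region itself in 3 DP libraries at 121 members, in 2 at 94 and in 1 at 69. Just outside the rule stood 70 primed regions with an H3K27me3 peak of 1 DP library, and 0 primed regions had more than that. H3K27ac was unlisted in every DP library at 235 members and listed in 1 at 49. DP replicate 2, with 3079 H3K27ac peaks, held 0 peaks at members and replicates 1 and 3 held 11 and 38. The H3K4me1 peaks at members sat near the middle of their own lists, with a median percentile of total signal of 43.2, 49.7 and 51.0 in DP replicates 1 to 3. The H3K27me3 peaks ranked higher, at medians of 68.9, 80.8 and 62.5.

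The members lay in 269 DP H3K27me3 regions, of which 255 held 1 member, 13 held 2 and 1 held 3. These regions had a median width of 15294 bp against 10708 bp for all 5247 DP H3K27me3 regions, and 51.3% of them reached a promoter against 69.2% of all. Just over 1 member in 2 (145, 51.1%) lay wholly under H3K27me3, and 19 had under 10% of their bases there. The median member was 3719.5 bp wide (1285 to 14671 bp), narrower than primed regions (4002.5 bp) and active ones (5415.5 bp). Placed by the midpoint of the region alone, here and below, introns held 139 members, intergenic DNA 121 and exons 24. The exon share was 8.45% (exact 95% binomial interval 5.49 to 12.3) against 3.74% of primed and 3.35% of active regions.

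Bivalent regions were closer to genes than primed ones. A protein-coding TSS lay within 20 kb of 165 of 284 members, 58.1% (exact 95% interval 52.1 to 63.9), against 46.1% (44.4 to 47.8) of primed and 55.4% (53.1 to 57.7) of active regions. The median distance was 15680 bp, 22772 bp and 16971.5 bp in turn. For the 57 regions with both H3K27ac and H3K27me3 the share was 66.7% (52.9 to 78.6) and the median 10592 bp. Nearness to genes was thus not particular to bivalent regions. Within the members the distance differed with the H3K27me3 region, a split that itself uses promoters. The 146 members whose H3K27me3 region reached a promoter had a median distance of 6240.5 bp, and 84.9% of them were within 20 kb of a TSS. The other 138 had a median of 35142 bp and 29.7% within 20 kb. These intervals cover counting error only, and regions are not replicates, so no test was made.

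CpG-rich DNA was more frequent under bivalent regions than under primed and active ones. The 400 bp window at the H3K4me1 maximum was CpG-rich (GC above 50% and an observed over expected CpG ratio above 0.6) at 22 members, 7.75% (exact 95% interval 4.92 to 11.5). The same held for 0.471% (0.269 to 0.763) of primed and 1.19% (0.747 to 1.79) of active regions, and for 5 of the 57 regions with both H3K27ac and H3K27me3 (8.77%, 2.91 to 19.3), a share above that of the members. Of the 22 members, 18 lay in an H3K27me3 region that reached a promoter, and among the 138 members whose region did not, the share was 2.90%. The share also fell to 3.66% with a consensus from all 3 libraries and to 2.53% with the upper 50% of peaks of each list. Median GC of the window was 52.5% for members, 48.75% for primed and 49.5% for active regions, and repeat-masked sequence made up 15.3%, 21.9% and 20.8% of the median region.

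**Figure D1:**
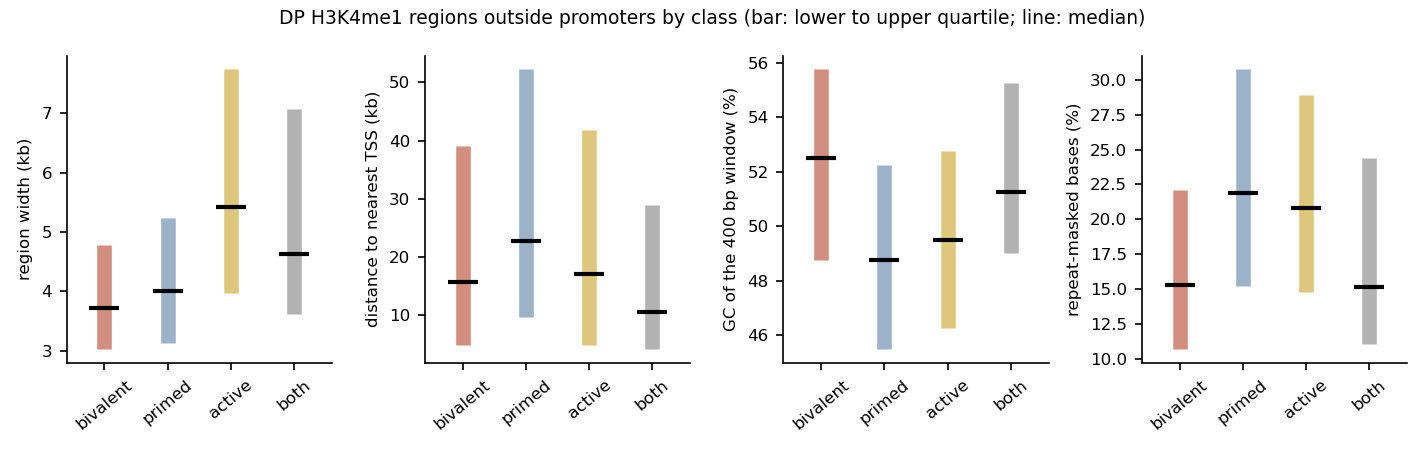
Width, distance to the nearest protein-coding TSS (both in kb), GC of the 400 bp window and repeat-masked bases (both in %) of DP H3K4me1 regions outside promoters, by class (284 bivalent, 3400 primed, 1850 active, 57 with both H3K27ac and H3K27me3). Bars run from the lower to the upper quartile and lines mark the median, and the bivalent regions have the highest median GC (52.5%) and the lowest median width (3719.5 bp) of the 4 classes.

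Short motifs were searched on both strands of the same 400 bp windows, and a match is a description of the letters, not a site. TFAP2 letters (GCCNNNGGC) were in 19.7% of members, 12.6% of primed and 13.9% of active regions, and in 13.4% of all 5591 windows. GATA letters (AGATAA) were in 39.1% of members and 37.8% of all windows. AP-1 letters (TGANTCA) were in 10.6% of members against 14.1% of all, and TEAD letters (ACATTCC) in 4.93% against 10.1%. For the POU octamer (ATTTGCAT) the shares were 2.82% and 2.20%, for SOX (ACAATGG) 8.45% and 11.4%, and for ESRRB (TCAAGGTCA) 2.46% and 1.68%. FOXA (TGTTTAC) was in 6.34% against 7.42%, STAT (TTCCNGGAA) in 1.41% against 2.02% and TCF/LEF (ATCAAAG) in 7.75% against 6.37%. Members had more GC than the other classes, and the part of base composition in these shares was not tested.

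What the same regions carried in Oct4+ and Pdgfra+ cells was not used to choose them. A region carried a mark there if it overlapped a consensus region of that population. Each mark was measured in bulk in its own library, so a mark on fewer cells and less of it per cell cannot be told apart, nor can marks on the same and on different cells. Of the 284 members, 66 (23.2%) carried H3K27me3 in Oct4+ and 77 (27.1%) in Pdgfra+, where the background over all 5591 regions was 2.61% and 1.99%. H3K4me1 was carried by 81 (28.5%) in Oct4+ and 39 (13.7%) in Pdgfra+, with a background of 29.5% and 20.1%. H3K27ac was carried by 65 (22.9%) in Oct4+ and 6 (2.11%) in Pdgfra+, with a background of 41.6% and 20%. The background over all regions includes the members and the 1850 active regions, the latter chosen for DP H3K27ac. Primed regions carried H3K27ac at 34.9% in Oct4+ and 1.59% in Pdgfra+. They carried H3K4me1 at 25.4% and 11.1%, and H3K27me3 at 1.21% and 0.618%. H3K9me3 was carried by 5 members in Oct4+, 6 in DP and 5 in Pdgfra+ (1.76%, 2.11% and 1.76%), with a background of 5.37%, 4.92% and 4.85%.

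Few members overlapped consensus regions of both marks outside DP. The H3K4me1 lists of Pdgfra+ replicates 1 and 2 held 1723 and 1074 peaks, against 4371 to 11874 in DP. The part of list length in the counts below was not tested. H3K4me1 and H3K27me3 were both carried by 19 members (6.69%) in Oct4+ and by 4 (1.41%) in Pdgfra+, against a background of 0.680% and 0.179%. H3K27me3 without H3K4me1 or H3K27ac was at 41 members (14.4%) in Oct4+ and 72 (25.4%) in Pdgfra+, against 0.971% and 0.618% of primed regions. H3K4me1 alone was at 34 members (11.97%) in each, against 7.65% and 10.6% of primed regions. H3K4me1 with H3K27ac was at 28 members (9.86%) in Oct4+ and 1 (0.352%) in Pdgfra+, an order that primed regions shared (17.6% and 0.529%). None of the 3 marks was carried by 130 members (45.8%) in Oct4+ and 168 (59.2%) in Pdgfra+, which were smaller shares than those of primed regions (56.5% and 87.2%). In 53 and 65 members (18.7% and 22.9%) 0 peaks of the 3 marks were listed in any library of that population, against 31.6% and 43.1% of primed regions.

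H3K27me3 was listed at bivalent regions in every Oct4+ and Pdgfra+ library more often than at primed ones. The share of members with a listed H3K27me3 peak was 8.10%, 15.1% and 38.7% in Oct4+ replicates 1 to 3 and 1.06%, 15.1% and 47.5% in Pdgfra+. The share of the 3400 primed regions in the same libraries was 0.0588%, 0.441%, 2.88%, 0.0294%, 0.176% and 1.71%. Replicate 3 was the highest of each population and also had its longest H3K27me3 list, with 5785 and 6151 peaks against 1143 to 2948 in the other 4. The mean difference was 20.1 ± 17.2 percentage points (SD, n = 6 libraries), above 0 in 6 of 6 libraries. An exact two-sided sign-flip permutation test gave p = 0.03125, the smallest that 6 libraries can give, and an adjusted p = 0.0625 over the 4 marks, which does not pass 0.05. Members and primed regions were split on DP H3K27me3 itself, so sites shared between populations put the difference above 0 in advance. Same-numbered Oct4+ and Pdgfra+ libraries deviated together for this mark, so that the 6 libraries may not be independent, and over the 3 numbers the adjusted exact permutation p was 0.333 (smallest possible p = 0.25). Without replicate 3 of any population, members and primed regions were chosen anew (106 and 1955), and the difference was 10.1 points. The excess of Oct4+ (19.5 points) and that of Pdgfra+ (20.6 points) differed by -1.08 points (exact permutation p = 0.9, adjusted p = 0.9, smallest possible p = 0.1), and without replicate 3 the difference was 4.33 points.

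Acetylation was listed at bivalent regions mainly in Oct4+, and there less often than at primed regions. In Oct4+ the share of members with a listed H3K27ac peak was 28.5%, 48.2% and 4.58% in replicates 1 to 3, below that of primed regions in each library (40.7%, 52.9% and 12.6%). In Pdgfra+ it was 3.52%, 3.52% and 1.06% against 2.79%, 3.65% and 1.74%. All 3 Pdgfra+ shares lay below all 3 Oct4+ shares. The H3K27ac lists were also longer in Oct4+ (8574 to 65131 peaks) than in Pdgfra+ (4792 to 7128), and the part of list length in this order was not tested. The mean difference from primed regions over the 6 libraries was -4.15 ± 5.14 points, below 0 in 5 of 6 (exact sign-flip permutation p = 0.125, adjusted p = 0.167). It was -8.28 points in Oct4+ and -0.0260 points in Pdgfra+, a gap of -8.25 points (exact permutation p = 0.1, the smallest possible, adjusted p = 0.4). With stricter classes, in which members had H3K27me3 peaks of 2 or more DP libraries and no DP H3K27ac peak and primed regions had no DP peak of either mark, the mean difference was -1.73 points. Without replicate 3 it was -7.22 points, and without replicate 1 the gap between the populations was -1.38 points, each with the regions chosen anew.

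For H3K4me1 the difference between bivalent and primed regions in the other populations was smaller than its spread over libraries. Its share at members was 15.8%, 48.6% and 25% in Oct4+ replicates 1 to 3 and 9.51%, 8.10% and 45.8% in Pdgfra+, and at primed regions 14.2%, 39.2% and 23.9%, then 8.68%, 4.44% and 53.9%. The mean difference was 1.41 ± 5.63 points, above 0 in 5 of 6 libraries (exact sign-flip permutation p = 0.53125, adjusted p = 0.53125), and Oct4+ minus Pdgfra+ was 5.21 points (exact permutation p = 0.4, adjusted p = 0.8). Both values changed sign in other settings of the analysis.

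H3K9me3 was listed less often at bivalent than at primed regions in 6 of 6 libraries. The shares were 1.76%, 3.17% and 0.704% in Oct4+ and 4.58%, 0% and 1.41% in Pdgfra+, against 6.50%, 5.53%, 2.82%, 6.97%, 1.118% and 4.71%. The mean difference was -2.67 ± 1.23 points (exact sign-flip permutation p = 0.03125, the smallest possible, adjusted p = 0.0625), with -3.07 points in Oct4+ and -2.27 in Pdgfra+, which differed by -0.804 points (exact permutation p = 0.6, adjusted p = 0.8). It was -1.53 points without replicate 1, -1.36 without replicate 3 and -1.02 where a region counted as marked only with 50% of it under peaks. In these settings the members were chosen anew. Members also had less repeat-masked sequence than primed regions, and the part of repeats in this difference was not tested.

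**Figure D2:**
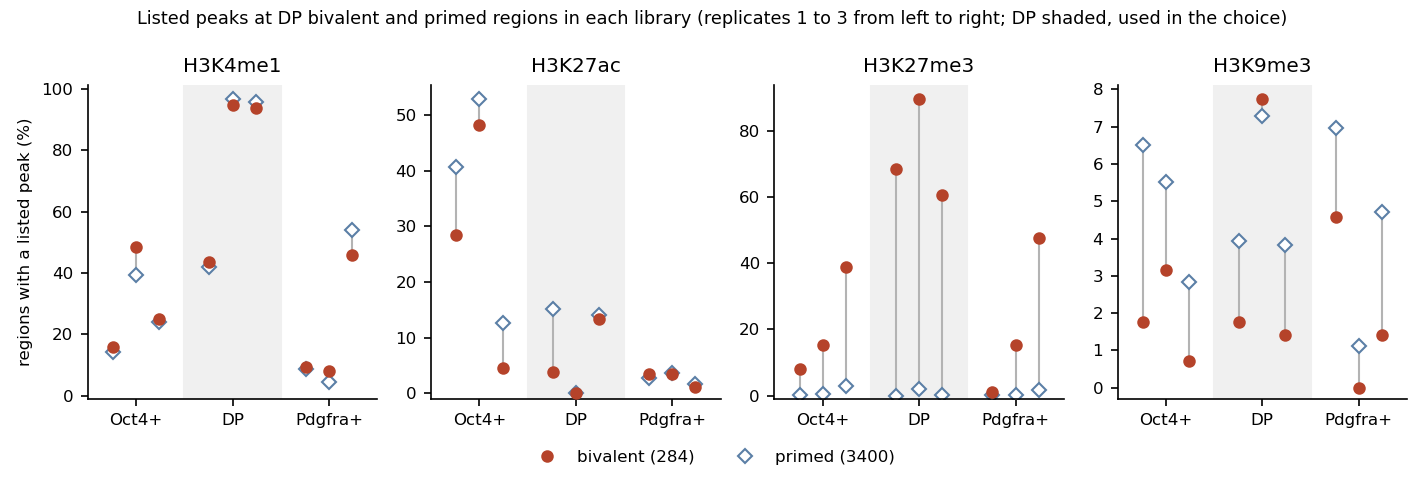
Share of the 284 bivalent and 3400 primed DP regions with a listed peak (%, vertical axis, scaled for each mark) in each of the 36 libraries, with replicates 1 to 3 from left to right in each population and a line joining the pair of values of a library. In the 6 Oct4+ and Pdgfra+ libraries H3K27me3 is higher and H3K9me3 lower at bivalent regions, while the shaded DP libraries were used to choose the regions.

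The 22 CpG-rich members carried H3K27me3 outside DP more often than the other 262. In Oct4+ 14 of 22 (63.6%) carried it against 52 of 262 (19.8%), and in Pdgfra+ 13 of 22 (59.1%) against 64 of 262 (24.4%). By library, an H3K27me3 peak lay at 40.9%, 54.5% and 77.3% of CpG-rich and 5.34%, 11.8% and 35.5% of other members in Oct4+ replicates 1 to 3. In Pdgfra+ the shares were 4.55%, 36.4% and 81.8% against 0.763%, 13.4% and 44.7%. The CpG-rich share was the higher in all 6 libraries. H3K4me1 was the higher at CpG-rich members in the 3 Oct4+ libraries (22.7%, 63.6% and 36.4% against 15.3%, 47.3% and 24.0%) and the lower in the 3 Pdgfra+ libraries (0%, 4.55% and 27.3% against 10.3%, 8.40% and 47.3%). This split was chosen after the values were seen and is a description with no test. Of the CpG-rich members 18 of 22 lay in an H3K27me3 region with a promoter, against 128 of 262, and the part of nearness to promoters was not tested.

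**Figure D3:**
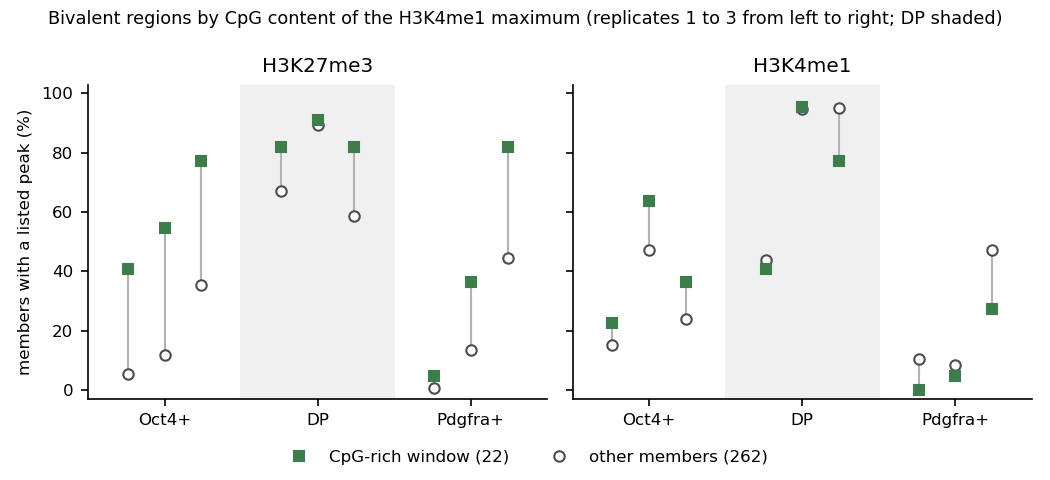
Share of bivalent regions with a listed H3K27me3 (left) or H3K4me1 peak (right, both in %) in each library, for the 22 members with a CpG-rich window and the other 262, with replicates 1 to 3 from left to right and DP shaded. For H3K27me3 the CpG-rich members are higher in all 6 Oct4+ and Pdgfra+ libraries.

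The genes next to bivalent regions carried H3K27me3 at the promoter in larger shares than genes at large, though in Oct4+ and Pdgfra+ most of these promoters did not carry it. The members had 262 distinct nearest genes, of which 245 were nearest to 1 member, 14 to 2 and 3 to 3 or more. An H3K27me3 consensus region lay at the promoter of 166 of these genes (63.4%) in DP, which the choice of members favours, and of 104 (39.7%) in Oct4+ and 87 (33.2%) in Pdgfra+. Among all 21924 protein-coding genes the shares were 16.3%, 10.9% and 8.03%. For the 2350 genes nearest to primed regions they were 17.3% in DP, 14.5% in Oct4+ and 7.02% in Pdgfra+. Where the H3K27me3 region of the member did not reach a promoter, 40 of 124 nearest genes (32.3%) carried H3K27me3 at the promoter in Oct4+ and 23 (18.5%) in Pdgfra+. H3K27ac was at the promoter of 86 of the 262 genes (32.8%) in Oct4+, 72 (27.5%) in DP and 41 (15.6%) in Pdgfra+. Of all 21924 protein-coding genes 35.5%, 32.6% and 20.1% had it there, and of the genes next to primed regions 51.8%, 51.3% and 33.4%. The genes next to members were thus nearer to genes at large.

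Few genes of any list had a bivalent region close by. A member lay within 20 kb of the TSS of 272 of 21924 protein-coding genes (1.24%). Of 72 regulators of the germ layers 5 had one (6.94%), of 75 signalling ligands, receptors and antagonists 5 (6.67%), of 25 trophectoderm genes 2, of 25 endoderm genes 1 and of 25 pluripotency genes 1. None of the 39 Hox genes had one. Primed regions lay within 20 kb of 10 of 25 pluripotency, 7 of 25 endoderm, 6 of 25 trophectoderm, 11 of 75 signalling, 2 of 39 Hox and 1 of 72 germ layer genes, against 8.498% of all genes. No test was made of these lists or of the difference between the classes. The trophectoderm genes were Eomes and Wnt7b, each of which another list held as well. For the trophectoderm regulators Tfap2c and Gata2 the nearest members were 287.1 kb and 27.2 kb away, the latter at chr6:88225544-88228736.

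Values for single regions are given as the percentile of the total signal of the peak among all peaks of that library, so that 100 is the highest. The T-box factor Eomes, needed for trophoblast and for definitive endoderm, had a member in its first kilobases downstream of the TSS (chr9:118480164-118483655, 1820 bp away). Only the midpoint of this member was placed, and it lay in an intron. The printed Eomes run was not placed and may hold exon bases. H3K4me1 was listed there in Oct4+ replicates 2 and 3 (percentiles 89.3 and 26.5) and in DP replicates 2 and 3 (2.05 and 13.8), and in 0 Pdgfra+ libraries. H3K27me3 over the region was listed in Oct4+ replicate 3 (68.0) and DP replicate 2 (56.6) only, and DP H3K27me3 covered 18.8% of it. This member thus had its highest H3K4me1 percentile in Oct4+ and lay at the edge of a 6396 bp H3K27me3 region.

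Esrrb, a nuclear receptor of the naive pluripotency network, had a member 16631 bp from its TSS inside a 31061 bp H3K27me3 region (chr12:86402170-86405013, intron). H3K27me3 was listed in DP at percentiles 95.7, 64.1 and 63.3, in Oct4+ replicate 3 (54.7) and in Pdgfra+ replicate 3 (47.5). H3K4me1 was listed in DP replicates 1 and 2 (26.6 and 34.8) and Oct4+ replicate 2 (42.9), and H3K27ac in Oct4+ replicate 2 (60.6). Outside DP, each mark here was listed in 1 library of a population at most.

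The signalling genes were the Notch ligand gene Dll1 and the Wnt genes Wnt1, Wnt7b, Wnt10a and Wnt10b, of which Wnt1 and Wnt10b shared the same member. Wnt ligands are secreted signals that act through Frizzled receptors. The list itself held many Wnt genes, and their share near members was not compared with it. The member near Wnt10a (chr1:74805431-74809046, 13915 bp) had H3K27me3 at percentiles 67.3, 97.4 and 90.4 in DP, 83.9 and 83.2 in Oct4+ replicates 2 and 3 and 81.4 and 95.4 in Pdgfra+ replicates 2 and 3. It had H3K4me1 in 3 DP libraries, in Oct4+ replicates 2 and 3 (84.4 and 42.2) and in 0 Pdgfra+ libraries. The member in an intron of Wnt10b (chr15:98771235-98774884, 2145 bp from its TSS and 14973 bp from that of Wnt1) had a CpG-rich window with 62.0% GC, and H3K27me3 in replicate 3 of each population (91.4 in Oct4+, 80.6 in DP and 68.0 in Pdgfra+). The Wnt7b member (chr15:85557756-85562126, 15944 bp) had H3K27me3 at 91.4, 83.9 and 88.9 in DP and 96.5 in Oct4+ replicate 3, with 0 peaks in Pdgfra+. The Notch ligand Dll1 had a member 4119 bp upstream (chr17:15380095-15383589), with H3K27ac in Oct4+ replicates 1 and 2 (63.98 and 53.0) and H3K27me3 in DP replicates 1 and 2 (84.3 and 91.9) and Oct4+ replicate 3 (98.4).

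Among the germ layer regulators, the neural factors Neurog2 and Emx2 were near members under wide H3K27me3 regions (23667 and 27597 bp). The Neurog2 member (chr3:127639405-127641369, 6270 bp) had H3K27me3 in 8 of 9 libraries, at 28.1, 14.9 and 94.6 in Oct4+, 93.6, 56.0 and 74.0 in DP and 4.28 and 89.1 in Pdgfra+ replicates 2 and 3. The Emx2 member (chr19:59466202-59469471, 7830 bp) had it in 6, at 31.9 and 97.4 in Oct4+ replicates 2 and 3, 89.2, 74.0 and 63.3 in DP and 49.0 in Pdgfra+ replicate 3. Neither had H3K27ac in any library. The homeobox gene Meis2, a partner of Hox factors, had a member 291 bp from its TSS (chr2:116060143-116064221) with H3K27ac in Oct4+ replicates 1 and 2 (92.5 and 41.2), H3K27me3 in DP replicates 2 and 3 (46.3 and 32.9) and neither mark in Pdgfra+. The caudal gene Cdx1 had members 1749 and 9665 bp away in 1 H3K27me3 region, and the nearer had H3K4me1 in 3 Oct4+ libraries (51.2, 99.3 and 98.5) and H3K27me3 in 3 DP and 2 Pdgfra+ libraries. Mixl1, a homeobox gene of the primitive streak, had a member 10351 bp away (chr1:180707385-180711288) with H3K4me1 in 3 DP libraries (69.6, 22.9 and 64.4) and an H3K27me3 peak over it in 1 (10.2).

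H3K27me3 in 3 of 3 libraries of each population was found at 2 members. The Atoh8 member (chr6:72221219-72225589, intron, 9988 bp downstream of the TSS) lay in a 70659 bp H3K27me3 region of this basic helix-loop-helix gene. Its H3K27me3 percentiles were 32.0, 94.9 and 99.7 in Oct4+, 99.9, 99.97 and 92.7 in DP and 58.4, 88.9 and 99.96 in Pdgfra+. H3K4me1 was listed in 3 DP libraries (75.8, 79.9 and 91.7) and in 1 library of each other population. The Nkd1 member (chr8:88452940-88456204) lay 65150 bp upstream of this antagonist of Wnt signalling, in an H3K27me3 region with no promoter, and its window had 74.75% GC and a CpG ratio of 0.931. H3K27me3 was at 79.4, 89.7 and 89.3 in Oct4+, 76.2, 85.9 and 84.0 in DP and 71.0, 69.5 and 74.8 in Pdgfra+. Its H3K4me1 peaks were among the weakest of their lists (3.52 and 3.81 in DP replicates 2 and 3), and 0 were listed elsewhere. In all 6 Oct4+ and Pdgfra+ libraries H3K27me3 was thus listed at 2 members and in 0 of the 6 at 114. Of primed regions 0 had it in 3 Pdgfra+ libraries, while 97.1% in Oct4+ and 98.3% in Pdgfra+ had 0 peaks of it.

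H3K27ac in Oct4+ with 0 peaks in Pdgfra+ was found at 58 members, and the share of other regions with this pattern was not counted. H3K27ac in Oct4+ at all was at 22.9% of members and 34.9% of primed regions. Among the 58 members 31 carried H3K4me1 in Oct4+ (53.4%) and 11 carried H3K27me3 there (19.0%), against 48 (21.9%) and 55 (25.1%) of the 219 members without H3K27ac in Oct4+. H3K27me3 sites aside, primed regions in Oct4+ had H3K4me1 with H3K27ac at 17.6% and H3K27ac alone at 17.1%. They had H3K4me1 alone at 7.65% and none of the 3 marks at 56.5%. H3K4me1 thus went with H3K27ac at primed regions too. Ordered first by the number of Oct4+ libraries with a peak and then by mean percentile, the first of the 58 were next to Med13l, a subunit of the Mediator kinase module, Fitm2, which acts in lipid droplet formation, and Zdhhc19, a palmitoyltransferase. The Med13l member (chr5:118443187-118450844, 109875 bp upstream) had H3K27ac at 99.9, 99.8 and 98.2 in Oct4+ and H3K4me1 at 98.2 and 98.9 in replicates 2 and 3. In DP its H3K27ac was unlisted and H3K27me3 stood at 88.1 and 83.1 in replicates 1 and 3. The Fitm2 member (chr2:163461507-163465091, 7538 bp) had H3K27ac at 98.9, 96.1 and 93.9 and also H3K9me3 at 76.1, 74.1 and 92.6 in the Oct4+ libraries of the same numbers, with 0 peaks of either in DP and Pdgfra+. Its DP H3K27me3 was a peak of 1 library over the region. The Zdhhc19 member (chr16:32507364-32512528, 11064 bp) had H3K27ac at 96.3, 99.5 and 66.1 in Oct4+ and H3K27me3 at 97.5, 99.3 and 97.0 in DP.

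The next 5 by rank were near Krt42, Tex44, Sh3pxd2a, Klf3 and Sox13. At Sox13, a SoxD transcription factor gene, the member (chr1:133395733-133398364, 2463 bp upstream) had H3K4me1 at 85.8, 87.0 and 83.2 and H3K27ac at 64.3, 80.8 and 43.3 in Oct4+. In DP it had H3K27me3 at 98.2, 95.6 and 93.8 and H3K4me1 in replicates 2 and 3 (51.2 and 27.6), and in Pdgfra+ 0 peaks of the 4 marks. At the keratin gene Krt42 the member was one of the widest (12326 bp), and only 6.95% of it lay under DP H3K27me3. At Tex44, a testis-expressed gene, H3K27ac stood at 85.3, 95.3 and 77.8 in Oct4+ and H3K27me3 at 15.1 and 17.2 in DP and 23.6 and 44.6 in Pdgfra+, each in replicates 2 and 3.

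In Pdgfra+ 6 members carried H3K27ac (2.11%, against 1.59% of primed regions), near Egfl7, 1700001O22Rik, Btg2, Apc, Gadd45b and Ocel1. At the endothelial factor Egfl7 (chr2:26547370-26551419, 29637 bp upstream) H3K27ac was at 85.5 and 88.6 in Pdgfra+ replicates 1 and 3 and at 43.4 and 99.3 in Oct4+ replicates 1 and 2, while H3K27me3 was at 87.6, 98.6 and 82.6 in DP. At the stress-response gene Gadd45b (chr10:80935759-80942323) H3K27ac was listed in 3 Oct4+ libraries (90.7, 88.8 and 37.7) and in replicate 3 of DP (60.1) and of Pdgfra+ (65.6), with H3K27me3 at 63.9 and 58.9 in DP replicates 2 and 3. Of these 6 members 3 had an H3K27ac peak in 1 DP library.

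H3K9me3 was carried by 12 members in at least 1 population. By population the shares of members (1.76%, 2.11% and 1.76% in Oct4+, DP and Pdgfra+) were below those of all 5591 regions (5.37%, 4.92% and 4.85%). Myl9, which encodes a myosin light chain, had a member (chr2:156777709-156785801) with H3K9me3 in 8 of 9 libraries, at 69.9, 68.6 and 52.8 in Oct4+, 12.5, 60.6 and 30.5 in DP and 63.4 and 43.3 in Pdgfra+ replicates 1 and 3. Its DP H3K27me3 was at 10.2 and 30.6 in replicates 1 and 2. The member near the mucin gene Muc5ac (chr7:141768844-141772354) had H3K9me3 in 3 DP libraries (74.9, 93.3 and 37.7) beside H3K27me3 at 90.3 and 95.4 in DP replicates 2 and 3. At Zfp212, a zinc finger gene, the member (chr6:47902627-47906735) was CpG-rich, with H3K27me3 in 3 Oct4+ libraries (49.3, 58.0 and 69.7) and in 0 of Pdgfra+, where H3K9me3 was listed in replicates 1 and 3 (76.8 and 8.52). The other 2 of the 5 described were next to Rab44 and Fitm2.

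**Figure D4:**
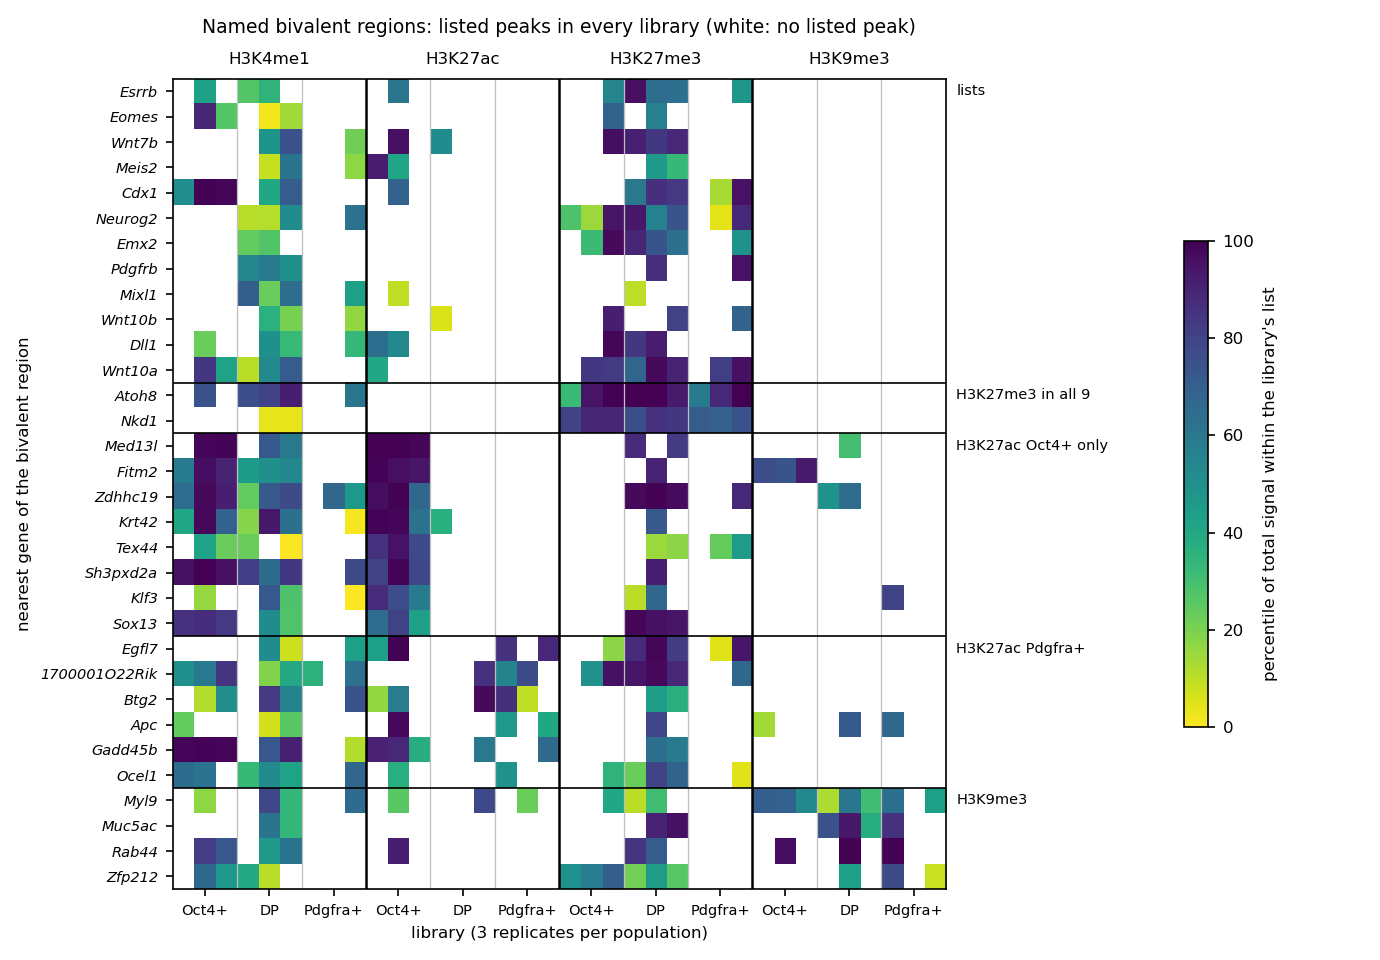
Percentile of the total signal of a listed peak within its own library (colour, white where no peak was listed) for named bivalent regions (rows, by nearest gene) in each of the 36 libraries (columns). Rows are grouped as genes of the lists, H3K27me3 in all 9 libraries, H3K27ac in Oct4+ with none in Pdgfra+, H3K27ac in Pdgfra+ and H3K9me3. By choice every row has an H3K27me3 peak in at least 1 DP library, though not in all. The Oct4+ H3K27ac columns are full for the 8 rows from Med13l to Sox13.

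The 5 widest members were near Tbxas1 (14671 bp), Krt42 (12326 bp), Creld1 (11954 bp), Fgfr3 (10949 bp) and Lrrc4b (10218 bp). The member near the FGF receptor gene Fgfr3 (chr5:33686360-33697308) lay wholly within a 50266 bp H3K27me3 region, with H3K27me3 at 97.0, 98.5 and 99.9 in Oct4+, 99.4, 99.8 and 99.6 in DP and 56.3 and 93.0 in Pdgfra+ replicates 2 and 3. H3K27ac was also listed at this member, in 2 Oct4+ libraries, 1 DP library and 0 Pdgfra+ libraries. One H3K27me3 region of 57718 bp near Pex26, a peroxisomal gene, held 3 members (chr6:121136478-121142053, chr6:121143034-121147376 and chr6:121175782-121178010). At these 3 members H3K27me3 was listed in 3 of 3 DP libraries and 0 of 6 others, while H3K4me1 was listed in 2 Pdgfra+ libraries at each. Celf4, an RNA-binding protein gene, and Foxo1, a forkhead factor gene, were nearest to 4 members each, all in introns. The 4 in Foxo1 lay wholly under H3K27me3 in DP, had it in 0 Oct4+ libraries and had H3K27ac in 1 Oct4+ library each. The genes with several members were singled out after their values were seen.

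Chromosome 6 held 43 of the 284 bivalent regions (15.1%, exact 95% interval 11.2 to 19.8), the most of any chromosome. It held 11.7% of primed, 5.95% of active and 10.1% of all 5591 regions, and 10 of the 57 regions with both H3K27ac and H3K27me3 (17.5%), so that its share was not particular to bivalent regions. Between 70 and 130 Mb, an interval chosen after the positions were seen, lay 37 members (13.0%), against 6.06% of primed and 2.81% of active regions and 7 of the 57 with both marks (12.3%). Peaks of the marks that define the members were also frequent there in all populations, at 4.43 to 8.75% of each H3K4me1 list and 4.22 to 9.54% of each H3K27me3 list, against 2.69 to 3.12% of H3K27ac and 2.07 to 2.501% of H3K9me3 lists. Chromosome 2 held 28 members (9.86%) and chromosome X 0. The members on chromosome 6 carried H3K27me3 in Oct4+ and Pdgfra+ at 25.6% and 27.9%, and the other 241 at 22.8% and 26.97%. Without chromosome 6, the H3K27me3 difference from primed regions was 19.8 points and that of H3K9me3 -2.82 points, close to the values above. The cause of the high share was not tested.

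**Figure D5:**
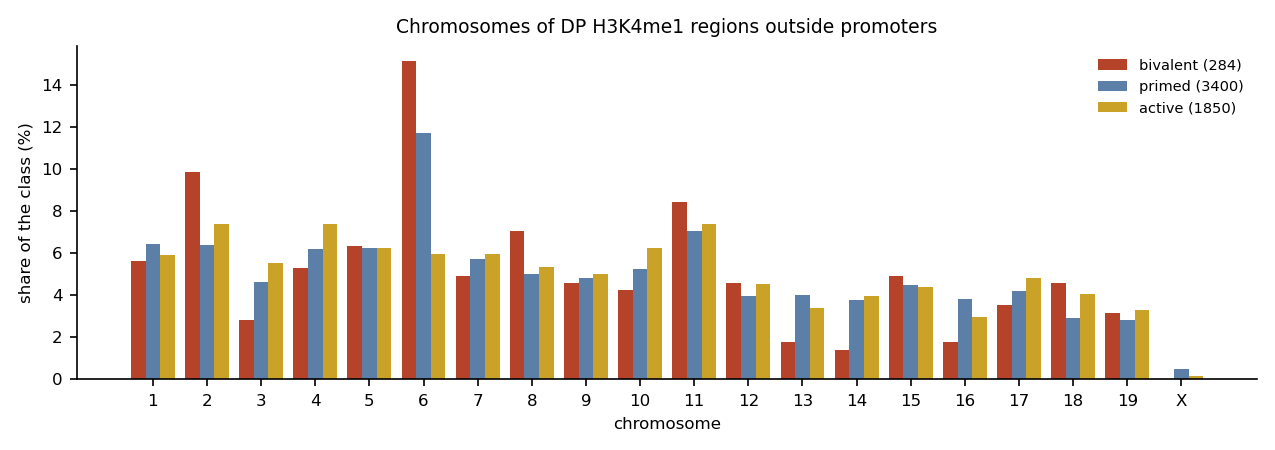
Share of bivalent (284), primed (3400) and active (1850) DP H3K4me1 regions outside promoters on each chromosome (bars, % of the class, from 0). Chromosome 6 holds 15.1% of bivalent, 11.7% of primed and 5.95% of active regions.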

How the data were processed

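Libraries were grouped by the mark and population in their labels. Per the file headers and the study's methods, the authors called peaks with SEACR in stringent mode against IgG on BEDtools fragment coverage, 1 list per library, and the deposited signal (total and maximum) is coverage in whole numbers that had not been scaled to depth. The submitters' processing notes name Bowtie2, SAMtools 1.12, deepTools, bcl2fastq 2.19.1, bedtools 2.26.0 and mm10. IgG samples were not used here. The sources used here do not give the depth of the libraries or the normalization setting of SEACR.

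Merging and overlaps of 1 bp or more were run in Python 3.11.15 (pandas 2.3.3, NumPy 2.4.6, SciPy 1.17.1, Matplotlib 3.10.9). The interval code gave the same result as bedtools 2.31.1 on simulated intervals, and the tests were tried on simulated data. TSS came from GENCODE vM21 basic and sequence from GRCm38.p6, in which 0 of 432096 peaks ended beyond a chromosome. Shares of members and primed regions with a peak were subtracted within each library, and the 6 Oct4+ and Pdgfra+ libraries were tested by exact two-sided sign-flip (64 assignments) and 2-group permutation tests (20 splits), with Benjamini-Hochberg adjustment over 4 marks. Alternatives changed the overlap, the consensus, the peaks kept, the promoters, the reference and the libraries. With a replicate left out, its DP libraries were dropped too and the regions were chosen anew.

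Named regions were list genes within 20 kb of a member, members with H3K27me3 in all 9 libraries, with H3K27ac in Oct4+ and none in Pdgfra+ (first 8), with H3K27ac in Pdgfra+, with H3K9me3 (first 5), the 5 widest and H3K27me3 regions holding 3 members, each named by its nearest protein-coding TSS. The members and lists were chosen with earlier results of these data known. Same-numbered replicates of Oct4+ and Pdgfra+ deviated together for H3K27me3 (correlations across regions of 0.307, 0.120 and 0.254), a hint from the data and not a label.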

Additional observations from a re-analysis of the deposited data

How the results depend on the processing

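Of 156 recomputed values, 12 changed direction, 6 came to pass the 0.05 threshold and 15 counts or shares moved beyond 1.5 times or the exact interval, and the others did none of these. The number of bivalent regions was 571 with a consensus from 1 or more libraries, 82 from all 3, 79 with the upper 50% of peaks and 6 with equal numbers of peaks in all lists of a mark. It was 178 for the stricter classes, 138 for H3K27me3 regions without a promoter and 63 to 247 with 1 replicate left out (lowest without replicate 2, and 106 without replicate 3). The last 2 class settings, that without chromosome 6 and the block for differences from primed regions were chosen after seeing the data. The share with a TSS within 20 kb was 83.3% with equal numbers, 29.7% without a promoter and 59.9 to 64.2% with a replicate left out. The CpG-rich share was 0% with equal numbers, 3.66% from all 3 libraries, 2.53% with the upper 50% of peaks and 2.90% without a promoter.

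Differences from the reference regions passed 0.05 after adjustment (adjusted exact permutation p = 0.0417) for H3K27ac, H3K27me3 and H3K9me3 in these settings. With all other regions in place of primed ones they were -16.9, 19.9 and -3.11 points. With a consensus from 1 or more libraries, against primed regions, they were -3.73, 19.8 and -2.22. The other regions include 1850 active ones chosen for DP H3K27ac, which members were chosen to lack. Sites shared between populations thus put that H3K27ac difference below 0 in advance. These tests take the 6 libraries as independent, and for H3K27me3 the compared regions were split on the same mark in DP. With the replicate number as a block, the differences from primed regions kept their values (1.41, -4.15, 20.1 and -2.67 points for H3K4me1, H3K27ac, H3K27me3 and H3K9me3), with exact adjusted p = 0.333 to 0.75, and 3 numbers cannot give p below 0.25. Over all alternatives on the scale of points they ran from 10.1 to 29.1 for H3K27me3 and from -3.13 to -1.02 for H3K9me3. The H3K4me1 difference was -4.67 against all other regions and -15.8 with equal numbers. Oct4+ minus Pdgfra+ changed sign for H3K27ac against all other regions (3.75 points). It did so for H3K4me1 with equal numbers (-8.02), without a promoter (-0.823) and as a log2 ratio (-0.0886). It also did for H3K27me3 with 50% of the region under peaks (0.808), with equal numbers (4.62) and with replicates left out (-5.15 to 4.33), and for H3K9me3 from all 3 libraries (0.673), as a log2 ratio (0.216) and with replicates left out (-0.503 to 1.36). The cause was not tested. With the replicate number as a block, Oct4+ minus Pdgfra+ kept its values (5.21, -8.25, -1.08 and -0.804 points in the same order), with exact adjusted p = 0.5 to 0.75, and changed no call. With 1 replicate left out, 4 libraries cannot give p below 0.125.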
